A study of Homo sapiens with 6 samples.

Results

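The NKG2D ligands are stress-inducible surface proteins that mark a cell for attack by natural killer (NK) cells. The 6 ligand genes MICA, MICB, ULBP1, ULBP2, ULBP3 and RAET1L were chosen by name, by a rule that uses no measured value. Earlier results of these data were known when the choice was made. The genes were matched to Ensembl identifiers. All 6 were found among the 63677 genes of the counts table, and all 6 were among the 21729 genes with more than 10 counts in total. RNA was sequenced from UWB1.289, a BRCA1-deficient ovarian cancer cell line labelled as wild type for genotype, after 24 h with the PARP inhibitor Olaparib in 3 samples or with its vehicle DMSO in 3 samples. The sample labels give the Olaparib dose as 4 µM, whereas the text deposited with the series gives 10 µM. Every sample came from this 1 line, with 3 dishes per condition according to the treatment protocol in the labels, so the tests measure the spread between samples of a single line. The label of wild type stands beside a line that lacks BRCA1 in both groups alike.

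NKG2D is an activating receptor of NK cells and cytotoxic T cells, encoded by KLRK1, and it signals through the adaptor encoded by HCST. Its ligands resemble MHC class I molecules and are rare on resting cells. Heat, infection and DNA damage are known to raise them, the last through the kinases ATM and ATR, which poses the question addressed here for a drug that blocks DNA repair in a BRCA1-deficient line. Ligands are also set after transcription and can be cut from the surface by proteases. Only the RNA data of the study are analysed here, so protein on the surface was not assessed. Fewer cells with a transcript cannot be told apart from less transcript per cell.

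The ligand genes lie in a pair of clusters on chromosome 6 (GRCh38, GENCODE). MICA (ENSG00000204520, 31399784 to 31415315) and MICB (ENSG00000204516, 31494881 to 31511124) are in the MHC region and encode transmembrane proteins. ULBP2 (ENSG00000131015, 149942014 to 149949235), ULBP1 (ENSG00000111981, 149963943 to 149973715), RAET1L (ENSG00000155918, 150018334 to 150025532) and ULBP3 (ENSG00000131019, 150061053 to 150069121) belong to the RAET1 cluster on the other arm, and their proteins are held in the membrane by a lipid anchor. The promoters of 4 of these genes are printed to show how far the copies of each cluster share their upstream sequence. Each sequence covers the 250 bases before the RefSeq start (GRCh38.p14), read 5′ to 3′ on the strand of the gene. Capitals mark matches on either strand to motifs searched by their letters, namely heat shock elements (TTCNNGAA or GAANNTTC), the GC box (GGGCGG), the CCAAT box (CCAAT), a cyclic AMP response element core (TGACGT), E2F sites (TTTCCCGC or TTTGGCGC) and the interferon-stimulated response element (GAAA, any 2 bases, then GAAA).
MICA, chr6:31403345-31403594, plus strand: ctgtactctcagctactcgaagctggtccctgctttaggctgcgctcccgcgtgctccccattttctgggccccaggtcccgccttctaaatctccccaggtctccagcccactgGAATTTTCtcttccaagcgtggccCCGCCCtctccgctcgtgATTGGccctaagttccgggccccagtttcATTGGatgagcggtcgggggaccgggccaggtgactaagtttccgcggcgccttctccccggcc
MICB, chr6:31497895-31498144, plus strand: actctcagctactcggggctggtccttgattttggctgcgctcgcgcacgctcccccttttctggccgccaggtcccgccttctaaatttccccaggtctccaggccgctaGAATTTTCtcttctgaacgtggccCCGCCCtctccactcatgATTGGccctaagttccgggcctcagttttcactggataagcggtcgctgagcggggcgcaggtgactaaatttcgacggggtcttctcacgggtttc
ULBP2, chr6:149941764-149942013, plus strand: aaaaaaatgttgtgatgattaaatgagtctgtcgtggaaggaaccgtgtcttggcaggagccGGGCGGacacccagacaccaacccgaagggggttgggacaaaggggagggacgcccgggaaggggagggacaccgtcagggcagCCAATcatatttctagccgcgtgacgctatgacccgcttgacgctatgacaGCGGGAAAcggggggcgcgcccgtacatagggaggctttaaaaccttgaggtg
RAET1L, chr6:150025533-150025782, minus strand: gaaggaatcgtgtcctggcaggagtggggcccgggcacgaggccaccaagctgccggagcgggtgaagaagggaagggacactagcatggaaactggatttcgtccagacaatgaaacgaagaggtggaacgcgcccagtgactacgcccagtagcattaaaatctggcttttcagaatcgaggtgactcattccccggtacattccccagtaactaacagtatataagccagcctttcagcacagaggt

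The MICA and MICB promoters were identical at 82.7% of 254 aligned positions, whereas those of ULBP2 and RAET1L were identical at 48.8% of 293 aligned positions, a value within the 45.5% to 53.3% found for the pairs of members other than MICA with MICB. Both MICA and MICB held 1 heat shock element, the letters GAATTTTC in the printed windows, and none of the other 4 members held one. Over all 35116 promoter windows of the same length, 11.6% held a heat shock element. The GC box was found in 5 of the 6 members, 6 times in ULBP3 and 0 times in RAET1L, against 42.6% of all windows. The interferon-stimulated response element and the cyclic AMP response element core had 0 matches among the 6 windows, against 3.0% and 7.1% of all windows. An E2F match was present in ULBP2 alone among the members, against 1.9% of all windows. The windows of MICA and MICB lie inside the GENCODE spans given above, which reach further upstream. These matches describe letters and no binding was measured. A link between these sequences and the levels of the genes was not tested.

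Total counts lay between 35360458 and 39640775 per sample, and TMM scaling factors between 0.995 and 1.01. Of 9 carcinoma and epithelial markers, 8 were measured, among them KRT8, KRT18, EPCAM and PAX8, with summed levels of 486236 to 511145 normalized counts with Olaparib and 479452 to 495989 with DMSO. The remaining marker, WT1, had 8 counts over all 6 samples. Of 8 NK and T lymphocyte markers, NKG7 and GZMB were at 0, KLRD1, GNLY and CD3E had 1, 7 and 6 counts in total, and the summed list gave 105 to 118 normalized counts with Olaparib and 82.4 to 102 with DMSO, mostly from PTPRC and NCAM1. Among 7 fibroblast and endothelial markers, LUM and PECAM1 were at 0 and DCN and PDGFRB had 4 and 5 counts. The summed list gave 1837 to 1904 normalized counts with Olaparib and 1919 to 2002 with DMSO, mostly from CDH5 and COL1A1. The epithelial and the stromal list each held 1 gene with an adjusted p under 0.05 from edgeR, of 8 and 3 tested, and the lymphocyte list 0 of 3, where 3.36% of all genes passed. PAX8, from the carcinoma and epithelial list, had 12269 ± 216 normalized counts with Olaparib and 11429 ± 324 with DMSO (adjusted p = 0.0399 from edgeR). PAX8 also passed with DESeq2 (adjusted p = 0.025), limma voom (0.0349) and every edgeR setting on all 6 samples except upper-quartile scaling (0.0604). It did not pass in edgeR when any 1 of 5 samples was left out. KRT18, an epithelial keratin, passed with DESeq2 (adjusted p = 0.0322) and limma voom (0.00822) but not with edgeR (0.0977), and KRT8 passed with limma voom alone (0.0455). For PAX8, 22.4% of the exonic bases overlap another gene. VWF, an endothelial gene, rose from 41.8 ± 1.96 to 67.4 ± 3.17 normalized counts (adjusted p = 0.0106 from edgeR and 0.0710 from DESeq2). The part of these markers in the ligand values was not tested.

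No NKG2D ligand transcript passed the test for a change after Olaparib, and for 4 ligands the 95% interval lay within a 1.2-fold change either way. With edgeR's quasi-likelihood test and Benjamini-Hochberg adjustment over all genes, 0 of the 6 ligand genes had an adjusted p under 0.05, where 3.36% of all genes tested did. With an absolute fold change above 1.2 as a further condition the count was again 0, where 1.21% of all genes were called. At an unadjusted p under 0.05 the count was also 0, against 14.8% of all genes. DESeq2 gave 0 of 5 ligand genes, as it set no adjusted p for RAET1L. Its share over all 21729 genes, those without an adjusted p included, was 2.39%. With limma voom the count was 0 of 6, against 3.09% of all genes. As log2 fold change of Olaparib against DMSO (log2FC), the 6 genes had a median of -0.0041, beside -0.0042 over all genes tested, with 3 ligands above 0 and 3 below. A rise of 1.2-fold lay outside the 95% interval for MICA, MICB, ULBP1 and ULBP2 in the main fit, as did a fall of that size. For ULBP2 the margin was small, with a lower end of -0.256 where 1.2-fold is 0.263 on the log2 scale. Its estimate went to -0.114 with upper-quartile scaling and -0.136 without DMSO replicate 1. Intervals under those settings are not given here, so a 1.2-fold fall of ULBP2 is not firmly excluded. For ULBP3 and RAET1L the interval still held changes of that size.

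MICB, one of the pair of MHC-encoded ligands, gave 1138, 1187 and 1159 normalized counts with Olaparib and 1187, 1161 and 1127 with DMSO. The groups overlapped fully. The means were 1161 ± 24.6 and 1158 ± 29.9 (SD, n = 3 each), a log2FC of 0.0039 (SE 0.045, 95% interval -0.087 to 0.095, adjusted p = 0.989 from the edgeR test). MICA, its neighbour in the MHC, gave 857, 816 and 819 normalized counts with Olaparib and 815, 837 and 861 with DMSO. These ranges also overlapped, with means of 831 ± 22.8 and 838 ± 23.1. The log2 fold change of MICA was -0.012 (SE 0.048, 95% interval -0.109 to 0.085, adjusted p = 0.949 from the same edgeR test). As a fold, these intervals span 0.942 to 1.07 for MICB and 0.927 to 1.06 for MICA. The sign of each estimate was not stable, since MICA went to 0.0066 and MICB to -0.017 without DMSO replicate 3, and both also changed sign without Olaparib replicate 2.

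ULBP1, a lipid-anchored ligand, gave 575, 538 and 526 normalized counts with Olaparib and 581, 598 and 570 with DMSO. Olaparib replicate 1 lay among the DMSO samples, and the other two treated samples lay below them. With means of 546 ± 25.5 and 583 ± 14.3, the log2FC of ULBP1 was -0.094 (SE 0.054, 95% interval -0.203 to 0.016, adjusted p = 0.438 from edgeR). ULBP2 gave 262, 269 and 260 normalized counts with Olaparib and 270, 291 and 289 with DMSO. All 3 Olaparib samples were below all 3 DMSO samples, by a margin of about 1 count between Olaparib replicate 2 and DMSO replicate 1. ULBP2 was the single ligand whose groups did not overlap, and 19.3% of all genes tested had groups that did not overlap. Its means were 264 ± 4.38 and 283 ± 11.8, with a log2FC of -0.105 (SE 0.074, 95% interval -0.256 to 0.046, adjusted p = 0.565 from edgeR). The difference therefore did not pass the test.

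ULBP3, a further lipid-anchored ligand, was less abundant than MICA, MICB, ULBP1 and ULBP2, and its change was less precisely measured. It gave 69.8, 83.1 and 67.6 normalized counts with Olaparib and 60.6, 73.5 and 56.9 with DMSO. The highest DMSO sample, replicate 2, lay above 2 of the Olaparib samples. Its means were 73.5 ± 8.37 and 63.7 ± 8.74, a log2FC of 0.21 (SE 0.15, 95% interval -0.11 to 0.52, adjusted p = 0.589 from edgeR). This was the largest estimate among the 6 ligands in size, and it lay within the spread of the replicates. Without Olaparib replicate 2 it was 0.11, and without DMSO replicate 2 it was 0.32, with adjusted p values from edgeR of 0.844 and 0.428.

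RAET1L, which encodes the ligand also called ULBP6, was close to the limit of detection. It had 4, 8 and 6 raw counts in the Olaparib samples and 6, 4 and 8 in the DMSO samples. Every sample was just above the floor of 3 counts that a count of 0 would still allow. Its log2FC of 0.030 had a 95% interval from -0.995 to 1.05 (adjusted p = 0.989 from edgeR), or 0.502 to 2.08 as a fold, so changes anywhere in that range were not detectable at this depth. The sign turned without Olaparib replicate 2 or DMSO replicate 2, with values of -0.238 and -0.195.

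**Figure D1:**
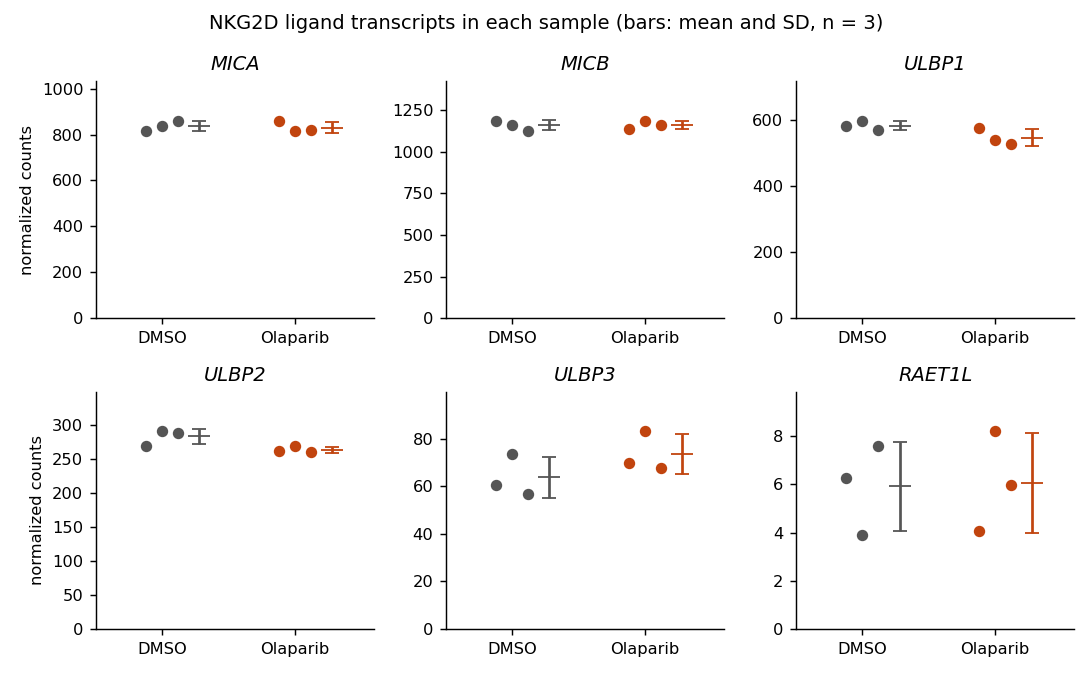
Normalized counts (y axis, from 0) of the 6 NKG2D ligand genes in each DMSO sample (grey) and each Olaparib sample (orange), with points from left to right for replicates 1 to 3 and bars for the mean and SD. The groups overlap in 5 genes, and in ULBP2 the 260 to 269 counts of the Olaparib samples sit just under the 270 to 291 of the DMSO samples.

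**Figure D2:**
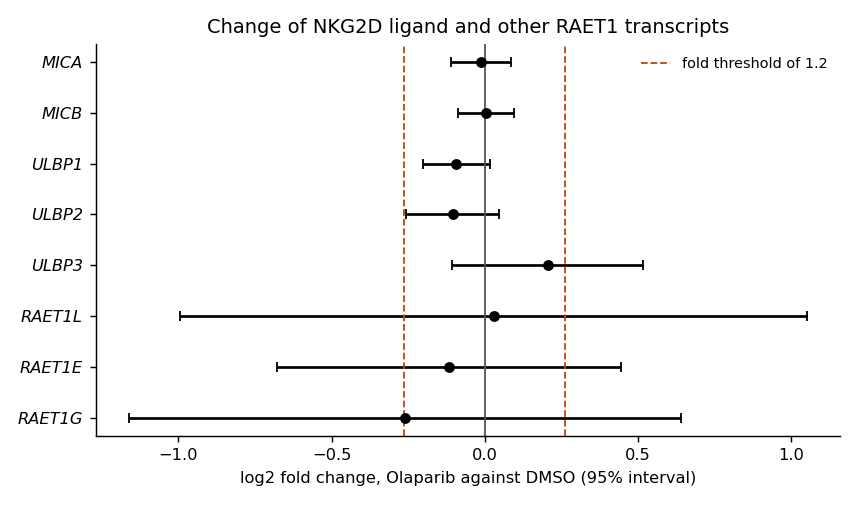
Log2 fold change of Olaparib against DMSO (x axis) with its 95% interval from the edgeR fit for the 6 ligand genes and for RAET1E and RAET1G, with dashed lines at a fold change of 1.2 in each direction. The intervals of MICA, MICB, ULBP1 and ULBP2 end inside the dashed lines, and that of RAET1L runs from -0.995 to 1.05.

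The remaining coding genes of the RAET1 cluster, RAET1E and RAET1G, encode further NKG2D ligands and were low as well. RAET1E gave 25.3, 18.5 and 12.9 normalized counts with Olaparib and 22.0, 18.6 and 20.9 with DMSO, with a log2FC of -0.116 (95% interval -0.678 to 0.445, adjusted p = 0.901 from edgeR). RAET1G gave 4.10 to 9.94 normalized counts with Olaparib and 6.27 to 12.7 with DMSO, with a log2FC of -0.261 (95% interval -1.16 to 0.641, adjusted p = 0.852 from edgeR). Their groups overlapped, and the intervals were too wide to tell a change of 1.2-fold from none. In GENCODE, 16.2% of the exonic bases of RAET1E and 9.3% of those of RAET1G overlap another gene.

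Counts of the RAET1 genes rest partly on sequence that several of them share. Of all 50-base windows in the annotated transcripts of ULBP2, 32.6% also occurred in another gene, 29.7% in RAET1L and 11.7% in RAET1G. For RAET1L the share was 31.5%, for ULBP3 11.1% and for ULBP1 8.1%. MICA and MICB were more distinct, with 1.9% and 2.9% of their windows found elsewhere. How reads with several matches were counted is not given in the sources used here, so the split between ULBP2, RAET1L and RAET1G is uncertain. When their counts were added together in each sample, the log2FC was -0.106 (95% interval -0.254 to 0.042, adjusted p = 0.544 from edgeR), close to that of ULBP2 alone. The exons of ULBP1, ULBP2, ULBP3 and RAET1L overlap no other annotated gene, and 4.1% of the exonic bases of MICA and 2.0% of those of MICB do. The counts table also holds 11496 identifiers without an entry in the annotation used, 862 of them among the genes tested, and whether any of these are copies of MICA or MICB on alternative MHC haplotypes was not tested.

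Levels were compared between ligands per length, as reads per kilobase of merged exons, scaled to library size (RPKM) with TMM scaling. MICB was the most abundant ligand by this measure at 11.1 ± 0.235 RPKM with Olaparib and 11.1 ± 0.285 with DMSO, 1.91 times the level of the next. MICA followed at 5.76 ± 0.158 and 5.81 ± 0.160 RPKM, and ULBP2 at 5.28 ± 0.0877 and 5.67 ± 0.237. The ranges of MICA and ULBP2 over the 6 samples overlapped, so their order was not resolved. ULBP1 came next at 4.55 ± 0.212 and 4.85 ± 0.119 RPKM, below ULBP2 in every sample. A gap of 7.98 times separated ULBP1 from ULBP3, which had 0.631 ± 0.0719 and 0.547 ± 0.0751 RPKM. RAET1L was lowest, at 0.121 ± 0.0413 and 0.118 ± 0.0368 RPKM, a further 4.95 times below. Among all genes tested, by CPM without regard to length, MICB stood at the 71.1st percentile, MICA at the 66.0th, ULBP1 at the 60.6th, ULBP2 at the 52.6th, ULBP3 at the 42.0th and RAET1L at the 18.7th.

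The place of MICA in this order depended on its length. The merged exons of MICA span 3851 bases because of long annotated isoforms, whereas the canonical transcript has 1370 bases. With canonical lengths MICA had 16.2 ± 0.445 RPKM with Olaparib and 16.3 ± 0.451 with DMSO, and stood above MICB at 12.8 ± 0.272 and 12.8 ± 0.330. ULBP2, ULBP1, ULBP3 and RAET1L kept their values under either length. The pairs of related genes thus differed in level by unlike amounts, with MICA and MICB of the same order and ULBP2 far above RAET1L, a partner that shares 29.7% of its transcript windows.

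**Figure D3:**
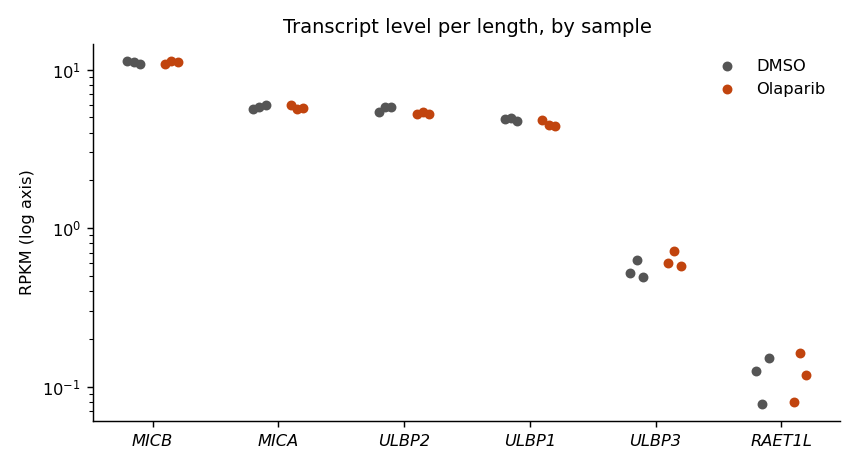
Level of each ligand per length in RPKM (y axis, log scale) in the DMSO (grey) and Olaparib (orange) samples, 1 point a sample, ordered by mean level with merged exon lengths. MICB, MICA, ULBP2 and ULBP1 lie between 4.38 and 11.3 RPKM, ULBP3 between 0.488 and 0.713, and RAET1L between 0.0779 and 0.163.

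Whether the ligands responded differently from each other was examined with the log2 ratio of a pair of genes within each sample. The MICA to MICB ratio was -0.483 ± 0.0675 with Olaparib and -0.468 ± 0.0770 with DMSO on the log2 scale (exact permutation test, two-sided, p = 0.8). For ULBP1 to ULBP2 it was 1.05 ± 0.0721 and 1.04 ± 0.0645 (exact permutation p = 0.9). The ULBP2 to ULBP3 ratio was 1.84 ± 0.135 with Olaparib and 2.15 ± 0.179 with DMSO, lower in all 3 Olaparib samples (exact permutation p = 0.1, the smallest that 3 samples against 3 allow). The ULBP1 to ULBP3 ratio was 2.89 ± 0.179 and 3.19 ± 0.157, with overlapping groups (exact permutation p = 0.2). After adjustment over these 4 pairs the exact permutation p values were 0.9, 0.9, 0.4 and 0.4. No pair could reach a p under 0.05 in this design.

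For the 4 ligands with a mean count of at least 100, the genes with the most similar pattern over the 6 samples were sought among 11996 genes of that abundance, by Pearson's r of log2 CPM (counts scaled to library size). For MICA these were STK38 (r = 0.9984), SUPV3L1 (0.9983) and VPS37A (0.9888). For MICB they were ASB7 (0.9840), RAVER1 (0.9608) and ZNF746 (0.9602). For ULBP1 they were NSMAF (0.9934), ARMCX5 (0.9872) and POGK (0.9852), and for ULBP2 VAMP2 (0.9942), TMEM37 (0.9928) and CYP2S1 (0.9873). An r above 0.95 was reached by 16 genes for MICA, 7 for MICB, 38 for ULBP1 and 60 for ULBP2. With 6 points from the same libraries and so many genes searched, values of this size describe these samples only.

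The receptor and its adaptor had few or no counts in this cell line. KLRK1, which encodes NKG2D itself, had 0 counts in all 6 samples, where 3 counts a sample is the limit that a count of 0 allows. In GENCODE, 62.4% of the exonic bases of KLRK1 overlap another gene, and how reads on shared bases were assigned is not given in the sources used here. HCST, the adaptor, had 41 counts in total, with 5.96 to 9.23 normalized counts with Olaparib and 4.74 to 9.41 with DMSO. Its log2FC was 0.097 (95% interval -0.856 to 1.05, adjusted p = 0.953 from edgeR). For HCST, 45.7% of the exonic bases overlap another gene, so part of these counts may belong elsewhere.

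Among 7 genes linked to release of ligands from the surface, 1 rose and 0 fell at an adjusted p under 0.05, where 2.15% of all genes rose and 1.21% fell. The gene that rose was ADAM10, a membrane protease that sheds many surface proteins. It gave 6150, 5816 and 5740 normalized counts with Olaparib and 5552, 5357 and 5332 with DMSO. The treated samples were all higher, and the log2FC of ADAM10 was 0.125 (SE 0.033, adjusted p = 0.0271 from edgeR), below the fold threshold of 1.2. ADAM10 also passed with DESeq2 (adjusted p = 0.0195), limma voom (0.0269) and every other scaling, filter or block in edgeR (0.00246 to 0.0434). It did not pass, with adjusted p values of 0.105, 0.154 and 0.163 from edgeR, without Olaparib replicate 1, DMSO replicate 2 or DMSO replicate 3. With a sample left out, the log2FC of ADAM10 lay between 0.0958 and 0.145. ADAM9, ADAM17, MMP2, MMP9, MMP14 and PDIA6, the last a disulfide isomerase, did not pass. The list had a median log2FC of 0.039 and a range from -0.192 to 0.125.

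Of 11 transcription regulators linked to ligand genes, 1 rose and 0 fell, where 2.15% of all genes rose and 1.21% fell. The one that rose was ATF4, the stress-response factor known to act on ULBP1, with 10664, 11096 and 11186 normalized counts with Olaparib and 9819, 10197 and 10319 with DMSO. The groups did not overlap, and the log2FC of ATF4 was 0.119 (SE 0.029, adjusted p = 0.0158 from edgeR), below the fold threshold of 1.2. The adjusted p of ATF4 rose to 0.0618 without Olaparib replicate 2, 0.123 without Olaparib replicate 3, 0.105 without DMSO replicate 1 and 0.0645 without DMSO replicate 2, all from edgeR. The other 10 regulators did not pass. Of the 11, 6 had an unadjusted p under 0.05, where 14.8% of all genes did. That share covers genes of every level, and no share at matched level was computed. Among these 6, ATF4, HSF1, RELA and MYC were higher with Olaparib, and E2F1 and E2F2 were lower. HSF1, the factor that binds heat shock elements, had 6810 ± 141 normalized counts with Olaparib and 6441 ± 98.2 with DMSO (adjusted p = 0.172 from edgeR). E2F1 had 1227 ± 77.0 and 1345 ± 29.6 (adjusted p = 0.131 from edgeR). The log2FC was 0.101 for RELA, 0.069 for MYC and -0.274 for E2F2 (adjusted p = 0.165, 0.258 and 0.269 from edgeR). The median of the list was 0.030, with a range from -0.274 to 0.119.

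The ATM and ATR pathway, which links DNA breaks to ligand induction, had 0 of 8 genes past the threshold, where 3.36% of all genes passed, with a median log2FC of 0.024. ATM, the kinase that senses double-strand breaks, gave 1226, 1197 and 1226 normalized counts with Olaparib and 1370, 1272 and 1400 with DMSO. All 3 treated samples were lower, with a log2FC of -0.148 (SE 0.046, adjusted p = 0.068 from edgeR). ATM passed with some other settings and not with others. In edgeR fits its adjusted p was 0.0241 with a replicate block, 0.0463 with the filterByExpr filter and 0.0498 with upper-quartile scaling. Without DMSO replicate 2 the edgeR value was 0.0318. ATM did not pass with DESeq2 (adjusted p = 0.118), limma voom (0.0746), or edgeR with DESeq2 size factors (0.0679) or no filter on low counts (0.0634). Without any other 1 sample the adjusted p from edgeR was 0.0601 to 0.268. ATR, its counterpart at stalled forks, had a log2FC of 0.082 (adjusted p = 0.381 from edgeR), with 9.3% of its exonic bases overlapping another gene. These are transcript levels and say nothing of kinase activity.

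Among 11 ligands of other NK cell receptors, 10 were tested and 0 passed in either direction, where 3.36% of all genes passed, with a median log2FC of -0.014 and a range from -0.251 to 0.183. They included NCR3LG1 (B7-H6) and BAG6, ligands of NKp30, and PVR and NECTIN2, ligands of DNAM-1. CD48, the ligand of 2B4, had 1 count over all samples and was not tested. At an unadjusted p under 0.05, 3 of the 10 passed, where 14.8% of all genes did. Here too, that share covers genes of every level.

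**Figure D4:**
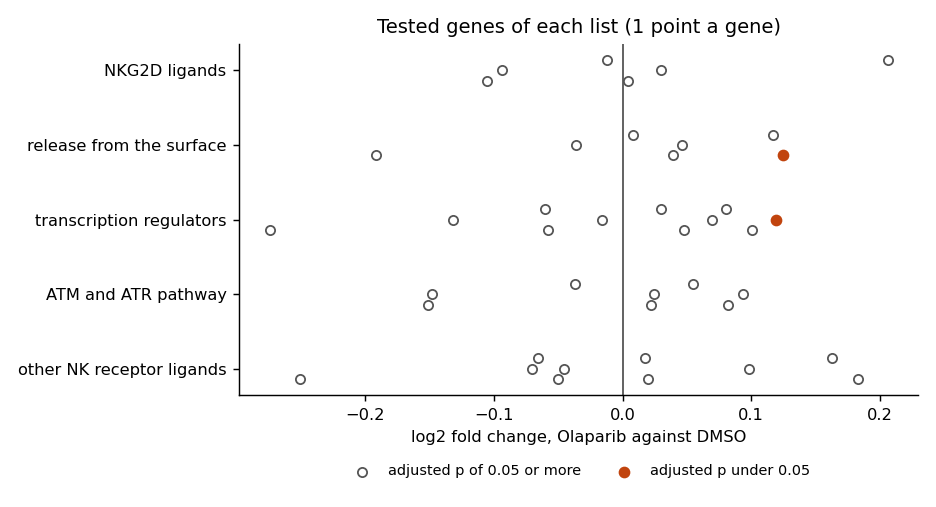
Log2 fold change of Olaparib against DMSO (x axis) for every tested gene of 5 lists, 1 point a gene, filled where the adjusted p from edgeR was under 0.05. The 6 NKG2D ligands spread from -0.105 to 0.206 with no filled point, and the filled points are ADAM10 and ATF4.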

How the data were processed

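RNA-seq counts of 6 samples, 3 Olaparib and 3 DMSO, were analysed. Poly(A) RNA was sequenced from stranded libraries. The authors trimmed reads with Trimmomatic, aligned them to GRCh38 with STAR, marked duplicates with Picard and deposited raw whole-number counts per gene from featureCounts, with no normalization. Whether duplicates were removed, the strand setting and the handling of reads with several matches are not given in the sources used here. Samples were grouped by their titles, and row names were matched through the description labels. Genes with more than 10 counts in total were TMM-scaled and fitted in edgeR 4.0.16 (R 4.3.3) by quasi-likelihood, with Benjamini-Hochberg adjustment over all genes. DESeq2 1.42.0 and limma 3.58.1 voom were alternatives. Intervals are the log2 fold change with its standard error (SE) from the fit, at the 95% level. Normalized counts are scaled to the mean library. Lengths, positions and symbols came from GENCODE 44, which held 81.9% of identifiers. The counts table gave no lengths, so merged exon lengths replaced the planned ones. Between replicates of a group, chi-square over its degrees of freedom was 1.81 to 4.11 over 15525 genes, more than counting error alone gives. That excess cannot show that the samples are independent. All 6 samples were counted separately, as labelled. Limits at 0 counts cover counting error only.

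The ligand genes and the other lists were chosen with earlier results of these data known, the lists from general knowledge. Besides the 6 ligands, the genes named are those of each list with an adjusted p under 0.05 (up to 5), those with 10 counts or fewer, RAET1E, RAET1G, KLRK1, HCST, ATM and ATR, and 3 genes of most similar pattern for each ligand with a mean count of at least 100. HSF1, E2F1, E2F2, RELA, MYC, KRT18, KRT8 and list members without values were named after their values were seen. One further gene of this rule, and a list tied to it, are not reported here.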

Additional observations from a re-analysis of the deposited data

How the results depend on the processing

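Over 13 alternatives (DESeq2, limma voom, other scalings, other filters, a replicate block and each sample left out in turn), the number of NKG2D ligand genes with an adjusted p under 0.05 was 0 in each, and so was the number called. The filterByExpr filter removed RAET1L, and DESeq2 gave it no adjusted p, so under these settings the counts cover 5 ligands. The median log2 fold change of the ligands lay between -0.0143 (filterByExpr, over 5 ligands) and -0.0031 under other settings and between -0.0471 and -3.17e-05 with 1 sample left out, the lowest value without Olaparib replicate 2. Over all genes, 262 were called, with 150 from DESeq2, 308 with no filter on low counts, 291 with the replicate block and 178 to 237 with 1 sample left out. With a sample left out, MICA lay between -0.0332 and 0.0066, MICB between -0.0173 and 0.0233, ULBP1 between -0.130 and -0.0683, ULBP2 between -0.136 and -0.0847, ULBP3 between 0.110 and 0.323 and RAET1L between -0.238 and 0.253. MICB also went to -0.0051 with upper-quartile scaling. With a sample left out, the change in log2 ratio of Olaparib against DMSO was -0.0527 to 0.0243 for MICA to MICB, -0.0334 to 0.0412 for ULBP1 to ULBP2, -0.398 to -0.219 for ULBP2 to ULBP3 and -0.391 to -0.202 for ULBP1 to ULBP3. In the order of levels, ranges did not overlap for 4 pairs of neighbouring ligands with merged exon lengths and for 5 pairs with canonical lengths. Canonical length was an alternative chosen after seeing the data, as were the summed RAET1 counts and the alternatives for genes other than the ligands. The cause of these movements was not tested.

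The replicate numbers share no stated batch. Over 11997 genes, deviations of samples with the same number from their group means correlated at -0.212, 0.264 and -0.328. Deviations from a group mean are tied to each other, so these values cannot decide whether the numbers pair the samples. Across numbers, Olaparib replicate 3 correlated at 0.491 with DMSO replicate 1, and at -0.380 and -0.328 with DMSO replicates 2 and 3. Olaparib replicates 1 and 2 correlated at 0.151 to 0.264 with DMSO replicates 2 and 3. The source of these shared deviations was not tested. A fit with the replicate block gave 0 ligand genes with an adjusted p under 0.05. RPKM with lengths from the counts table was not run, since the table held none. At this depth a change of 1.2-fold could not be told from none for ULBP3 and RAET1L.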
